A study of Mus musculus with 7 samples.

Results

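The genes described here are those of the macrophages of the fetal liver and of the erythroblastic islands that these cells form, 30 genes of the 38924 in the count files. They were taken from a list of 33 symbols by looking each up in the name column of the authors' deposited table of knockout against wild type and joining it by identifier to the read counts. Adgre1 appears there under its older symbol Emr1 and was counted once, and Vsig4 and Cd163 have no row in that table and were dropped. Messenger RNA of whole mouse fetal liver, taken 12.5 days after coitum, was sequenced in 4 wild-type libraries (replicates 1 to 4) and 3 libraries labelled PCBP2 knockout (replicates 3 to 5). The labels give no strain, allele, sex, litter or batch, and do not say that each library came from a separate animal, so each p-value here weighs a difference against the spread among libraries, which may be technical. The comparison asks how the loss of Pcbp2, a protein that binds C-rich RNA, changed the transcripts of the fetal liver.

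Macrophages are phagocytes of the myeloid lineage that depend on signalling through the CSF1 receptor. In the fetal liver a central macrophage is ringed by maturing erythroblasts, holds them by adhesion molecules, engulfs the nuclei they expel and digests the DNA. Macrophages also make complement component C1q, clear dying cells through scavenger receptors and receptors for exposed phosphatidylserine, and signal through receptors paired with adaptors that carry an immunoreceptor activation motif.

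Reads assigned to genes numbered between 31898339 and 44544889 a library, and levels are given in CPM (reads per 1000000 of the effective library size). A count of 0 allows up to 3 reads, which is 0.0662 CPM in the deepest library and 0.102 CPM in the shallowest, counting error only. Pcbp2, which checks the labels, had 165, 329, 347 and 338 CPM in wild type replicates 1 to 4 and 2.24, 1.39 and 2.22 CPM in knockout replicates 3 to 5 (log2 fold change -7.26 ± 0.34, SE; edgeR adjusted p = 1.29e-05). Wild type replicate 1 stood apart in Pcbp2, and genes whose values it moved most are given with and without it. The macrophage label held in both groups: Csf1r, Emr1 (F4/80), C1qa, C1qb and C1qc all had reads in every library, between 10.3 and 88.2 CPM.

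Macrophage transcripts were lower in the knockout livers, but not all of them. Of the 30 genes, 14 fell (edgeR adjusted p under 0.05) and 0 rose, against 3.43% of all 16226 tested genes that fell and 1.59% that rose. The 14 are C1qa, C1qb and C1qc, the receptors Csf1r, Emr1, Cx3cr1, Ccr2 and Fcgr1, the adaptors Tyrobp and Fcer1g, the scavenger receptor Marco, and Ctss, Aif1 and Ly86. No gene rose with DESeq2 or limma-voom either, and none of the 19 genes with an unadjusted p under 0.05 had a positive log2 fold change, while 21.8% of all tested genes had such a p in one direction or the other. The knockout libraries lay entirely below the wild-type ones for 17 of the 30 genes and entirely above for 0, against 10.8% and 9.83% of all tested genes. The median log2 fold change was -0.62, against 0.01 over all tested genes, and single genes ranged from -2.88 for Marco to 0.09 for Maea. In bulk tissue, fewer cells of a type and less RNA per cell cannot be told apart. By the authors' deposited table, lower levels were given for 17 of the 30 genes and higher levels for 0, at an adjusted p under 0.05, against 6.86% and 4.06% of its 15548 genes, and the 3 that table adds to the 14 are Dnase2a, Mpeg1 and Spic.

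**Figure D1:**
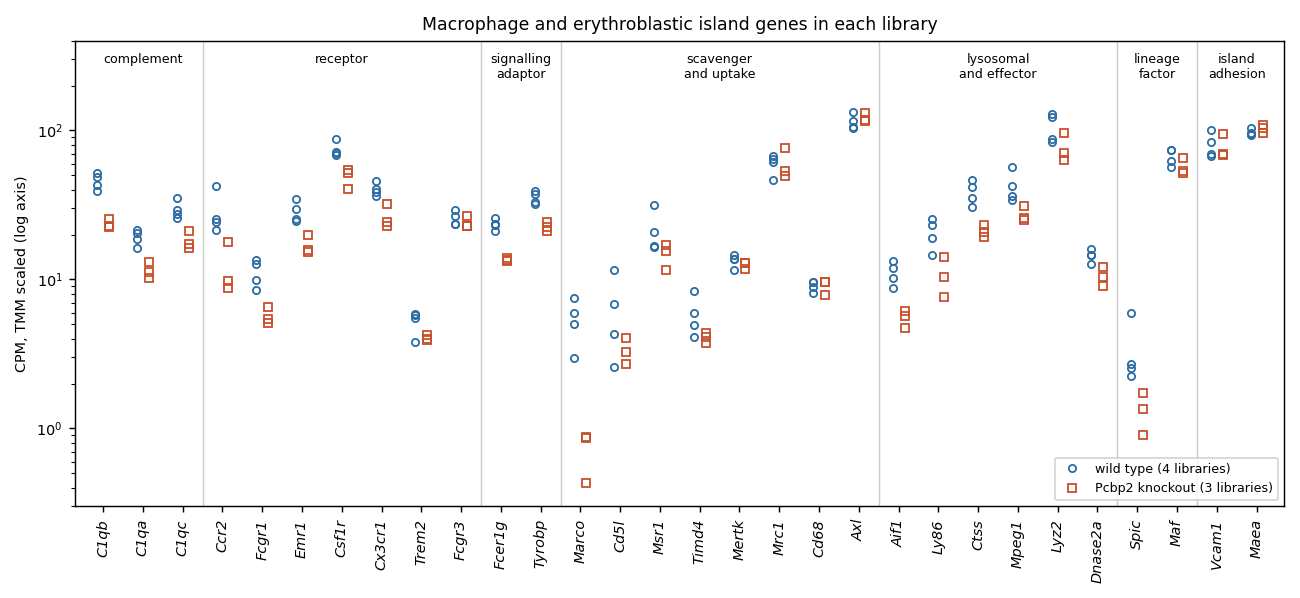
Level of each of the 30 genes in CPM on a log axis, with 1 point per library (circles, 4 wild type; squares, 3 Pcbp2 knockout) and the genes grouped by role. The squares lie below all circles for C1qa, C1qb, C1qc, Fcer1g, Tyrobp and Marco, and overlap the range of the circles for Cd68, Axl, Mrc1 and Maea, with 2 of the 3 squares of Maea above all circles.

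The count rested on single libraries more than the direction did. It dropped to 3 when knockout replicate 5 was left out, to 8 for either library numbered 4, and to 11 for wild type replicate 1. Over all tested genes, 556 of 16226 fell in the reported fit, and that number dropped too. It was 116 of 16440 without knockout replicate 5 and 242 of 16347 without knockout replicate 4. Without wild type replicate 4 it was 324 of 16008, and without wild type replicate 1 it was 363 of 16096. The 3 listed genes that passed without knockout replicate 5 were C1qb, Marco and Fcer1g, and these passed in every alternative in which they were tested. The other 11 calls ended without knockout replicate 5, with edgeR adjusted p between 0.0572 for Aif1 and 0.174 for Cx3cr1. Without knockout replicate 4 the calls of Csf1r, Emr1, Cx3cr1, Fcgr1, Ccr2 and Ly86 ended (edgeR adjusted p between 0.0631 and 0.131), and without wild type replicate 4 those of Csf1r, C1qa, C1qc, Cx3cr1, Ccr2 and Ly86 (between 0.0508 and 0.0873). Leaving out wild type replicate 1 ended the calls of Cx3cr1, Ccr2 and Ly86, wild type replicate 3 those of Csf1r, Cx3cr1 and Ccr2, wild type replicate 2 that of Ly86, and knockout replicate 3 that of C1qc. Scaling by total counts shifted the median over all tested genes from 0.01 to 0.14 (log2; 651 rose and 393 fell, against 258 and 556) and left 10 genes lower and ended the calls of Csf1r, C1qc, Cx3cr1 and Ly86 (edgeR adjusted p between 0.0638 and 0.0783).

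**Figure D2:**
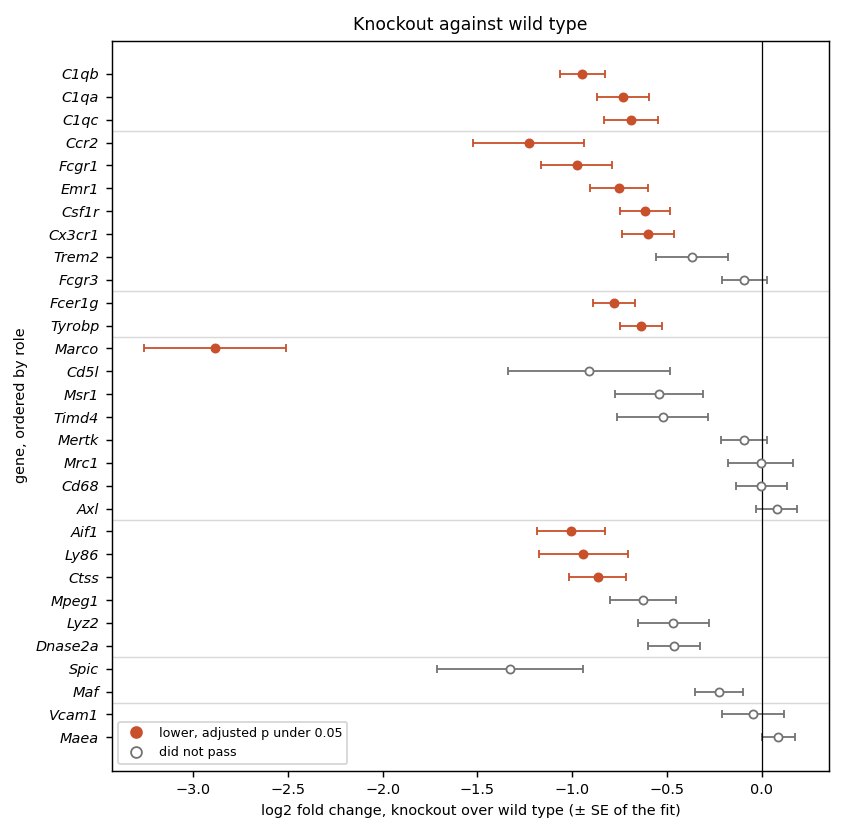
Log2 fold change of each gene, knockout over wild type, with its standard error from the edgeR fit. Filled points are the 14 genes that passed at an adjusted p under 0.05; open points did not pass. Axl and Maea lie right of 0, and Cd68 and Mrc1 lie almost on it.

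Stretches just upstream of the transcription start are shown for 4 genes that fell and 2 that did not pass, because PU.1, the myeloid transcription factor encoded by Spi1, binds a purine-rich site with the core GAGGAA and Spi1 was itself lower. RefSeq start sites on build GRCm38.p6 were found for 22 of the 30 genes, with 23 starts. The 6 were chosen among starts whose window holds no exon of GENCODE M21. That choice left out Ccr2, Cx3cr1, Fcer1g and Ly86, which fell and hold no match to the core. Each run is the 250 bases before the start, 5′ to 3′ on the strand of the gene, with GAGGAA or its reverse complement TTCCTC in capitals. The windows are chr4:136886201-136886450 (C1qb, minus strand), chr1:120505025-120505274 (Marco, minus strand), chr3:95526536-95526785 (Ctss, plus strand), chr3:96293970-96294219 (Fcgr1, minus strand), chr11:69666171-69666420 (Cd68, minus strand) and chr2:128698665-128698914 (Mertk, plus strand).
C1qb: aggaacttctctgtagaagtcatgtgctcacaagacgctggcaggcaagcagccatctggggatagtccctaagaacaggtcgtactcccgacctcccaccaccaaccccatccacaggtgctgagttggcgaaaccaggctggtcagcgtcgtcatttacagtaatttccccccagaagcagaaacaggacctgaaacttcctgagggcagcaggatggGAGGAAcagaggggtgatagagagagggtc
Marco: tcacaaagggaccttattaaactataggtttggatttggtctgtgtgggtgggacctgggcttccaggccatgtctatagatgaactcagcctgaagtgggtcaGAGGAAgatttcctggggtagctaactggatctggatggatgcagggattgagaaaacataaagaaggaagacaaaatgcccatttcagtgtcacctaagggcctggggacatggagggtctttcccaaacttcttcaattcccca
Ctss: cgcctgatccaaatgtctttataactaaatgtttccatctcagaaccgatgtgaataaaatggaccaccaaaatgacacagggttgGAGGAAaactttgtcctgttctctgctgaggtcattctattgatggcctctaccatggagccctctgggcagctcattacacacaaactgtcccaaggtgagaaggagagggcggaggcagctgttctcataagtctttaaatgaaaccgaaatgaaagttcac
Fcgr1: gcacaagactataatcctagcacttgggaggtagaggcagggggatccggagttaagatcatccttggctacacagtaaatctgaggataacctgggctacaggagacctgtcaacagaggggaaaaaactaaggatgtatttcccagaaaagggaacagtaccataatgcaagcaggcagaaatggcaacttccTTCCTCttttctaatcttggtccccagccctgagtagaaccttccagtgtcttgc
Cd68: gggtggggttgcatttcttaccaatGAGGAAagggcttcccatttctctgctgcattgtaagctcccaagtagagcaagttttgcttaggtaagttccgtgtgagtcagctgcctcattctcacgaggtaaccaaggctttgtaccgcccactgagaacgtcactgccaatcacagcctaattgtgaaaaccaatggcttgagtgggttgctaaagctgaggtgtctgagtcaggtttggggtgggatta
Mertk: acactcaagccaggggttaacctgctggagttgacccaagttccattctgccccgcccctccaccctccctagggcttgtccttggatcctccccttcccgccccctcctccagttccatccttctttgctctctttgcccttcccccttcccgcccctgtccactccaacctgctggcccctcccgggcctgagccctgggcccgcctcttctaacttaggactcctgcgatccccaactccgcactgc
C1qb, Marco, Ctss, Fcgr1 and Cd68 hold 1 match each and Mertk holds 0. Of the 10 genes with a window that fell, 6 hold GAGGAA on either strand, and of the 12 that did not pass, 6 do. The core was found in 13 of the 23 windows, those of 12 genes, against 23.3% of 32851 windows of the same length. The match of Fcgr3 falls in overlapping windows and is counted in each. The longer form GAGGAAGT, which contains it, was found in the window of C1qc and in 2.44% of all windows. A match describes the letters and does not show that the factor binds there. Whether the lower Spi1 bears on the level of any of these genes was not tested.

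All 3 chains of C1q, the molecule that recognises immune complexes and dying cells and starts the classical complement pathway, fell. Their genes lie side by side on the minus strand of chromosome 4 (build mm10): C1qb at chr4:136880129-136886187, C1qc at chr4:136889804-136893065 and C1qa at chr4:136895917-136898803. C1qb had 42.9, 51.5, 39.1 and 48.6 CPM in wild type replicates 1 to 4 and 23.0, 25.5 and 22.4 CPM in knockout replicates 3 to 5. The lowest wild-type library was thus well above the highest knockout library, a log2 change of -0.95 ± 0.12 (SE; edgeR adjusted p = 0.00434). C1qa had 18.7, 21.4, 16.2 and 20.5 CPM against 10.3, 13.1 and 11.3 CPM (log2 change -0.73 ± 0.14; edgeR adjusted p = 0.0175). C1qc had 27.6, 35.1, 25.9 and 29.2 CPM against 17.3, 21.2 and 16.2 CPM (log2 change -0.69 ± 0.14; edgeR adjusted p = 0.0244). Neither pair of groups overlapped, and wild type replicate 2 was the highest library for each of the 3 chains. Within the C1q reads, C1qb took 48.1, 47.7, 48.2 and 49.4% in wild type and 45.4, 42.7 and 44.9% in knockout, and C1qa between 19.8 and 20.9% and between 20.3 and 22.6%. The share of C1qb was lower in each knockout library than in any wild-type one, a difference that was not tested.

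Among the 7 receptors 5 fell, and the lineage receptor was 1 of them. Csf1r, the receptor for CSF1 and IL-34 on which macrophages depend (chr18:61100598-61132149), had 71.9, 88.2, 68.6 and 70.6 CPM in wild type and 54.3, 51.7 and 40.3 CPM in knockout (log2 change -0.62 ± 0.13; edgeR adjusted p = 0.0275). Its exons overlap those of Hmgxb3 on the opposite strand over 873 bases, and the kit is stranded but the sources used here do not state the strand setting of the counting, so reads of the 2 genes cannot be told apart with certainty. Emr1, the adhesion receptor known as F4/80, had 34.8, 29.7, 24.8 and 25.4 CPM against 20.0, 15.8 and 15.3 CPM (log2 change -0.75 ± 0.15; edgeR adjusted p = 0.0236). The groups did not overlap for either gene.

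The chemokine receptors of the list fell as well. Ccr2, the receptor that draws monocytes to CCL2, had 42.4, 25.7, 21.4 and 24.2 CPM in wild type and 17.8, 8.80 and 9.78 CPM in knockout, a fall of 2.35-fold (log2 change -1.23 ± 0.29; edgeR adjusted p = 0.0400). Wild type replicate 1 was the highest of the 4, and without it the log2 fold change was -0.97 (edgeR adjusted p = 0.0677). Cx3cr1, the fractalkine receptor of monocytes and tissue macrophages, had 38.5, 45.4, 36.4 and 40.4 CPM against 32.3, 24.4 and 23.0 CPM (log2 change -0.60 ± 0.14; edgeR adjusted p = 0.0363). Knockout replicate 3 was the highest knockout library for both receptors, as it was for 17 of the 30 genes. Wild type replicate 1 was likewise the highest wild-type library for 17 of the 30 genes.

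Receptors for IgG differed from each other. Fcgr1, the high-affinity receptor, fell from 12.7, 13.5, 8.54 and 9.84 CPM to 6.53, 5.07 and 5.39 CPM (log2 change -0.98 ± 0.19; edgeR adjusted p = 0.0188). Fcgr3, a low-affinity receptor, had 29.1, 23.7, 23.5 and 26.5 CPM in wild type and 26.7, 22.8 and 22.8 CPM in knockout. Its groups overlapped (log2 change -0.09 ± 0.12, edgeR adjusted p = 0.700), and its log2 change was 0.032 with total-count scaling. Much of its sequence is close to that of Fcgr2b, so its reads are less certain. Trem2, a lipid-binding receptor that signals through Tyrobp, had 5.82, 5.54, 3.78 and 5.80 CPM against 3.90, 4.26 and 3.99 CPM and did not pass (log2 change -0.37 ± 0.19; edgeR adjusted p = 0.294). Its wild type replicate 3 was the lowest of all 7 libraries, below the knockout ones.

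Both signalling adaptors fell. Fcer1g, the common gamma chain that Fc receptors use to signal, had 25.7, 23.6, 21.2 and 23.3 CPM in wild type and 13.5, 14.01 and 13.4 CPM in knockout (log2 change -0.78 ± 0.11; edgeR adjusted p = 0.00577). The knockout libraries were close together, at 13.6 ± 0.323 CPM (SD, n = 3). Tyrobp, the adaptor DAP12, had 33.1, 37.4, 31.9 and 39.2 CPM against 21.3, 24.5 and 22.5 CPM (log2 change -0.64 ± 0.11; edgeR adjusted p = 0.0139). Neither gene's groups overlapped.

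Of the 8 scavenger and uptake genes 1 fell, and it fell the most of the 30. Marco, a collagen-like scavenger receptor that binds bacteria and particles (chr1:120474538-120505024, minus strand), had 223, 121, 185 and 259 reads in wild type and 29, 39 and 15 in knockout. In CPM these are 7.55, 2.95, 5.06 and 5.96 against 0.877, 0.861 and 0.428, a 7.38-fold difference (log2 change -2.88 ± 0.37; edgeR adjusted p = 0.00451). The lowest wild-type library was above the highest knockout library by more than the whole range of the knockout libraries. Msr1, the class A scavenger receptor related to Marco, had 31.4, 16.7, 20.7 and 16.6 CPM in wild type and 16.9, 11.5 and 15.6 CPM in knockout, which overlap (log2 change -0.54 ± 0.23; edgeR adjusted p = 0.206). Cd5l, a secreted scavenger protein of tissue macrophages, had 11.6, 2.59, 4.30 and 6.83 CPM against 2.72, 3.27 and 4.08 CPM (log2 change -0.91 ± 0.43; edgeR adjusted p = 0.248). Its wild-type libraries spread widely, with wild type replicate 2 below all 3 knockout libraries. Without wild type replicate 1 the log2 change of Msr1 was -0.30 and that of Cd5l -0.45, and neither passed (edgeR adjusted p = 0.348 and 0.488).

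The other scavenger and uptake genes, among them receptors for phosphatidylserine on dying cells, did not pass. Timd4, which binds phosphatidylserine on dying cells, had 8.43, 4.12, 5.91 and 4.94 CPM in wild type and 3.72, 4.08 and 4.36 CPM in knockout (log2 change -0.52 ± 0.24; edgeR adjusted p = 0.236). Its log2 change was -0.30 without wild type replicate 1 (edgeR adjusted p = 0.421). The receptor kinases Mertk and Axl, which reach dying cells through the bridging ligand Gas6, had log2 differences of -0.09 ± 0.12 and 0.08 ± 0.11 (edgeR adjusted p = 0.702 and 0.719). The log2 difference of Mertk turned to 0.030 with total-count scaling. Axl, at 115 ± 13.4 CPM (SD, n = 4) in wild type and 121 ± 8.13 CPM (SD, n = 3) in knockout, is made by many cell types. Mrc1, the mannose receptor, which liver sinusoidal endothelium also makes, had 64.8, 61.4, 67.9 and 46.2 CPM against 76.8, 49.4 and 53.4 CPM (edgeR adjusted p = 0.989). Cd68, a lysosomal membrane glycoprotein of macrophages, had 8.90, 9.59, 8.16 and 9.59 CPM against 9.68, 9.58 and 7.90 CPM (edgeR adjusted p = 0.995). The log2 differences of Mrc1 and Cd68 were -0.01 ± 0.17 and 0.00 ± 0.13, and both became 0.12 with total-count scaling.

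Of the 6 lysosomal and effector genes 3 fell. Ctss, the protease cathepsin S, had 46.1, 41.8, 30.6 and 35.2 CPM in wild type and 23.1, 20.9 and 19.2 CPM in knockout (log2 change -0.87 ± 0.15; edgeR adjusted p = 0.0128). Aif1, the actin-bundling protein IBA1, had 13.4, 12.01, 8.73 and 10.2 CPM against 4.69, 5.67 and 6.16 CPM, a 2.01-fold fall (log2 change -1.01 ± 0.18; edgeR adjusted p = 0.0139). Ly86, the partner of the receptor CD180, had 25.5, 23.1, 14.5 and 19.0 CPM against 14.1, 7.66 and 10.4 CPM (log2 change -0.94 ± 0.23; edgeR adjusted p = 0.0476). Wild type replicate 3 came close to knockout replicate 3 in Ly86, while the groups of Ctss and Aif1 were further apart.

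Mpeg1, Dnase2a and Lyz2 did not pass in the reported edgeR fit. Mpeg1, the pore-forming protein perforin-2, had 56.8, 42.1, 36.3 and 34.3 CPM in wild type and 31.2, 25.9 and 25.01 CPM in knockout (log2 change -0.63 ± 0.17; edgeR adjusted p = 0.0692). Dnase2a, the lysosomal enzyme that digests the DNA of expelled erythroblast nuclei, had 14.7, 12.6, 16.1 and 14.6 CPM against 9.07, 12.05 and 10.4 CPM (log2 change -0.46 ± 0.14; edgeR adjusted p = 0.0854). The knockout libraries lay below the wild-type ones for both, and both passed with DESeq2 (adjusted p = 0.0101 and 0.0289). With edgeR, Mpeg1 passed when no filter on low counts was used (adjusted p = 0.0285) and Dnase2a when wild type replicate 2 was left out (adjusted p = 0.0497). Exons of Dnase2a overlap those of Mast1 on the opposite strand over 1616 bases. Lyz2, lysozyme M, had 129, 83.7, 87.8 and 123 CPM against 96.0, 70.1 and 63.6 CPM, with overlapping groups (log2 change -0.47 ± 0.19; edgeR adjusted p = 0.183), and its near copy Lyz1 makes its reads less certain.

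The 2 lineage factors did not pass. Spic, a factor of the PU.1 family needed by the macrophages that recycle red cell iron, had 5.92, 2.56, 2.24 and 2.69 CPM in wild type and 1.36, 0.905 and 1.74 CPM in knockout (log2 change -1.33 ± 0.39; edgeR adjusted p = 0.0776). Its groups did not overlap, it passed with DESeq2 (adjusted p = 0.00951) and with no filter on low counts (edgeR adjusted p = 0.0358), and wild type replicate 1 was more than 2 times any other library. Leaving that library out gave a log2 change of -0.91 (edgeR adjusted p = 0.124). Maf, a factor of macrophage self-renewal and differentiation that other cell types also express, had 73.5, 73.4, 62.2 and 56.6 CPM against 65.4, 53.1 and 51.7 CPM (log2 change -0.23 ± 0.13; edgeR adjusted p = 0.333).

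Neither adhesion gene of the island passed. Vcam1 holds erythroblasts through integrin alpha 4 beta 1 and is also made by endothelium and stroma. It had 83.5, 67.1, 100.2 and 69.7 CPM in wild type and 95.3, 69.0 and 68.4 CPM in knockout (log2 change -0.05 ± 0.16, edgeR adjusted p = 0.901). With total-count scaling its log2 change was 0.081. Maea, the erythroblast macrophage protein, which most cells also make as part of a ubiquitin ligase, had 95.4, 96.7, 92.5 and 103 CPM against 96.0, 109 and 104 CPM (log2 change 0.09 ± 0.09; edgeR adjusted p = 0.601). The groups overlapped in both genes, although 2 of the 3 knockout libraries were above all wild-type ones for Maea.

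Levels were compared between genes per kilobase of exon, as the mean of the wild-type libraries. Lyz2 was highest at 80.4 CPM per kb, followed by Tyrobp at 53.1, C1qb at 41.8, Maea at 36.9, Ctss at 28.3 and Fcer1g at 26.8. Marco, at 2.80, Timd4 and Dnase2a, at 2.69 each, Trem2, at 1.06, and Spic, at 0.874 CPM per kb, were lowest. Read counts, which also depend on exon length, were thinnest for Marco, Trem2 and Spic. In knockout Lyz2 stood at 58.2, Maea at 39.2, Tyrobp at 34.1, Axl at 24.1 and C1qb at 21.7 CPM per kb. The exon lengths are those of all isoforms in GENCODE M21 together, which makes these levels approximate.

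Whether the other 27 genes differed from C1q in their change was tested by another scaling. Every library was scaled to its summed reads of C1qa, C1qb and C1qc, between 1672 and 4423, in place of all genes. The 27 were not compared with each other. Under this scaling a gene that fell as much as C1q shows 0, and the median over all tested genes lies at 0.82. Marco was the 1 gene of the other 27 that was lower still (log2 change -2.12 ± 0.37; edgeR adjusted p = 0.000266), against 0.733% of all tested genes. Per 100 C1q reads there were 8.47, 2.74, 6.24 and 6.06 Marco reads in wild type and 1.73, 1.44 and 0.857 in knockout. Higher than C1q in their change were 9 of the 27, namely Cd68, Mrc1, Axl, Mertk, Fcgr3, Vcam1, Maea, Maf and Trem2, with log2 differences from 0.45 to 0.90, against 79.2% of all tested genes. Trem2 was nearest the threshold (edgeR adjusted p = 0.0493) and did not pass on leaving out any 1 library other than wild type replicate 1 (up to 0.125), with DESeq2 (0.0531) and with no filter on low counts (0.0953). Without knockout replicate 3 the calls of Vcam1 and Maf ended (0.0628 and 0.0715). The remaining 17, among them Csf1r, Emr1, Tyrobp, Fcer1g, Ctss, Aif1 and Fcgr1, passed in neither direction, which does not show that they fell alike. For Fcer1g the difference from C1q was 0.031 ± 0.16 and for Ccr2 -0.40 ± 0.29. The value of Ccr2 moved with single libraries, from -0.11 when wild type replicate 1 was left out and -0.16 when knockout replicate 4 was, to -0.83 ± 0.27 without knockout replicate 3, where alone it passed (edgeR adjusted p = 0.0109).

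**Figure D3:**
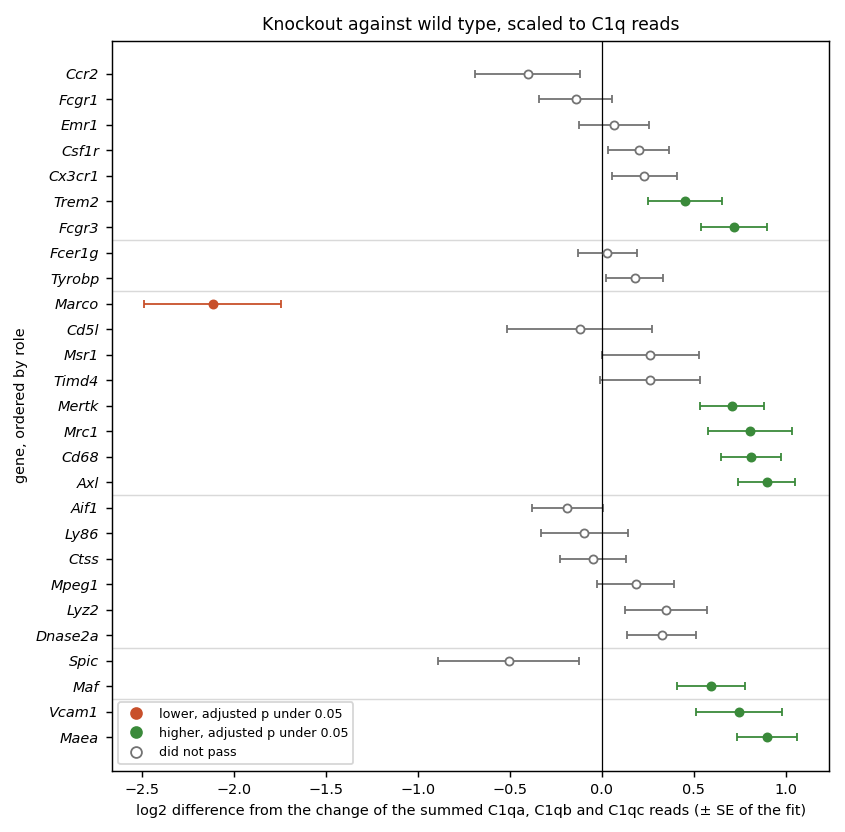
Log2 change of 27 genes after scaling each library to its C1qa, C1qb and C1qc reads, with the standard error of the edgeR fit; 0 marks the change of C1q itself. Marco lies far to the left at -2.12, while Axl, Maea, Cd68 and Mrc1 lie between 0.81 and 0.90.

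Counts in the further lists stand against the same 3.43% of all tested genes that fell and 1.59% that rose. In the list of CSF1 axis and myeloid transcription factor genes 2 of 23 tested fell and 0 rose (median log2 -0.07, near that of all genes at 0.01). They were Spi1, with 13.6, 14.5, 13.1 and 13.9 CPM in wild type and 7.98, 8.30 and 6.56 CPM in knockout (log2 change -0.86 ± 0.13; edgeR adjusted p = 0.00676, which rose to 0.0518 when knockout replicate 5 was left out), and Nr1h3, the sterol-sensing receptor LXR alpha that drives macrophage programmes (log2 change -0.87 ± 0.19; edgeR adjusted p = 0.0315). Nr1h3 did not pass on leaving out any 1 library other than wild type replicate 2 or knockout replicate 3 (edgeR adjusted p up to 0.147). Among genes of Fc receptor and ITAM signalling 3 of 26 fell and 0 rose (median -0.44). Among them, Cd300a, an inhibitory receptor, had a log2 fold change of -0.78 ± 0.17 (edgeR adjusted p = 0.0325) and Syk, the kinase that docks on phosphorylated ITAMs, of -0.51 ± 0.12 (edgeR adjusted p = 0.0414). Cd300a and Syk did not pass with total-count scaling (0.0547 and 0.0912), Cd300a on leaving out any 1 library other than wild type replicate 2 or knockout replicate 4 (up to 0.151), and Syk on leaving out any other than wild type replicate 2 or knockout replicate 3 (up to 0.190).

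Of other monocyte and Kupffer cell markers 9 of 35 tested fell and 0 rose (median -0.41). Slc15a3, a lysosomal peptide transporter, fell from 10.02, 7.98, 7.06 and 7.01 CPM to 2.96, 3.77 and 3.39 CPM (log2 change -1.24 ± 0.18; edgeR adjusted p = 0.00671). Coro1a, an actin regulator of leukocytes, had a log2 change of -0.98 ± 0.16 (edgeR adjusted p = 0.0112; 0.0701 when knockout replicate 5 was left out). Of the complement genes other than C1q 1 of 20 tested fell and 1 rose (median -0.38), against 3.43% and 1.59% of all tested genes, so that these counts are near the background. Itgax, the integrin CD11c of complement receptor 4, was lower (log2 change -1.08 ± 0.27; edgeR adjusted p = 0.0464), a call lost with total-count scaling and without any 1 library other than knockout replicate 3 (up to 0.193). Cd93, a C1q-receptor-like protein of endothelium and myeloid cells, was higher (log2 change 0.68 ± 0.15; edgeR adjusted p = 0.0320), a call that held on leaving out wild type replicate 2 or knockout replicate 4 but no other library (up to 0.110).

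On the erythroblast side of the island, and among its bridging ligands, 4 of 23 tested genes fell and 0 rose (median -0.07). Icam4, the red cell ligand of macrophage integrins, had 43.7, 29.3, 47.7 and 38.8 CPM in wild type and 17.6, 17.5 and 15 CPM in knockout (log2 change -1.25 ± 0.16; edgeR adjusted p = 0.00489). Gas6, the ligand of Mertk and Axl, had 23.2, 27.5, 21.7 and 27.4 CPM against 15, 16.3 and 13.9 CPM (log2 change -0.73 ± 0.13; edgeR adjusted p = 0.0132, which rose to 0.0824 when knockout replicate 5 was left out). Slc48a1, the haem transporter of macrophage phagolysosomes, which erythroid cells also make, and Klf1, the erythroid master factor, had log2 changes of -0.65 and -0.81 (edgeR adjusted p = 0.0103 and 0.0304). Both calls ended when knockout replicate 5 was left out (0.0705 and 0.143), and that of Klf1 also for wild type replicate 1, 3 or 4 or knockout replicate 4. Among broadly expressed lysosomal genes 3 of 30 fell and 0 rose (median -0.05; 3.43% of all tested genes fell), namely Ctsb, Ctsh and Laptm5, the last a protein of blood cells, and none of these 3 passed once knockout replicate 5 was left out (edgeR adjusted p = 0.0903, 0.0998 and 0.159). Leaving out knockout replicate 4 also ended the calls of Ctsh and Laptm5, as did wild type replicate 3 or 4 and total-count scaling for Laptm5.

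Markers of some other cell types also differed between the groups, in both directions, and their part in the result was not tested. All 6 erythroid markers fell, with summed levels of 2692 to 5152 CPM in wild type and 1064 to 1726 CPM in knockout, and so did all 4 megakaryocyte markers, from 251 to 348 CPM down to 130 to 151 CPM. Endothelial markers rose in 3 of 7, with sums of 183 to 244 CPM against 252 to 329 CPM. Granulocyte markers fell in 1 of 5 (75.2 to 109 CPM against 59.5 to 125 CPM) and mast cell markers in 0 of 3 tested, of 4 listed (60.3 to 71.4 CPM against 62.0 to 84.7 CPM). Hepatoblast markers fell in 0 of 6 (5698 to 11907 CPM against 7103 to 9037 CPM), stellate and mesenchymal markers in 1 of 6 (1837 to 2860 CPM against 1727 to 2068 CPM) and monocyte markers in 1 of 4, Ccr2, with sums set mostly by Fn1, which hepatoblasts also make (515 to 783 CPM against 577 to 791 CPM). Every listed marker had reads. The summed level of C1qa, C1qb and C1qc ran from 81.2 to 107.9 CPM in wild type and from 49.9 to 59.8 CPM in knockout, and that of the 8 scavenger and uptake genes from 217 to 253 CPM and from 215 to 239 CPM.

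**Figure D4:**
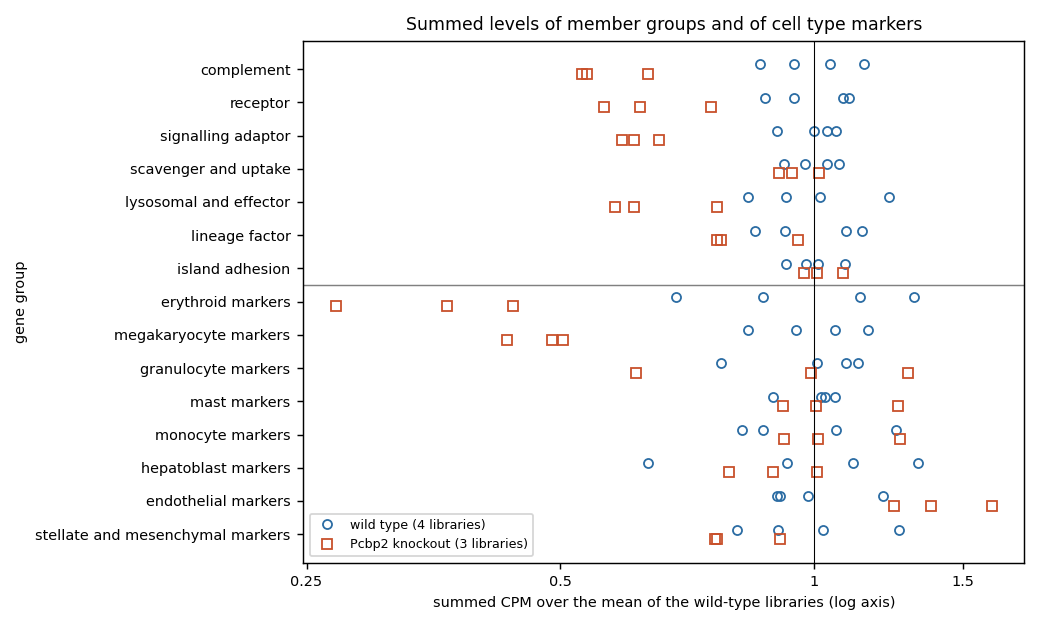
Summed CPM of each group of the 30 genes (above the line) and of markers of other cell types (below the line), divided by the mean of the wild-type libraries, on a log axis with 1 point per library. Sums of complement, receptor, adaptor, and lysosomal and effector genes lie below all wild-type points in the 3 knockout libraries. Scavenger, lineage factor and island adhesion sums overlap the wild-type points. Erythroid and megakaryocyte sums lie lower, and endothelial sums lie higher.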

How the data were processed

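Read counts per gene were deposited by the authors as raw counts for 7 libraries. Per the submitters' processing notes the tools were cutadapt 1.4.2, TopHat2, HTSeq, DESeq2 and DESeq on build mm10, with settings and annotation release not given in the sources used here. Per the labels, total RNA was taken with Trizol into TruSeq stranded libraries. The 5 HTSeq summary lines were left out of library sizes. In the authors' deposited table the baseline signal is a mean normalized count, the change a log2 fold change with its error, the test score a Wald statistic, and each p-value is given raw and adjusted.

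Counts were fitted in R 4.3.3 with edgeR 4.0.16 (filterByExpr, TMM, quasi-likelihood test, group as the only term, all 7 libraries), which kept 16226 genes and all 30 described here; p-values were Benjamini-Hochberg adjusted over all of them. A fit with library sizes set to C1qa, C1qb and C1qc reads takes those sizes as known. Scripts were tested on simulated data. Alternatives were RLE and total-count scaling, globin genes left out, other filters, DESeq2 1.42.0, limma-voom (limma 3.58.1), a replicate block and each library left out. Names came from the authors' table and GENCODE M21, coordinates from the latter. The text names every gene of the list, Pcbp2, and of each further list up to 4 genes with the smallest p, of which 1 is not reported here. The genes and lists were chosen with earlier results of these data known. The 30 have a row in the authors' table, which favours expressed genes.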

Additional observations from a re-analysis of the deposited data

Results flagged for a closer look

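In 3 of the 30 genes 1 of the 4 wild-type libraries stood apart from the other 3 by Dixon's criterion, which chance meets in about 1 of 20 groups. Spic had 5.92 CPM in wild type replicate 1, with a gap to the next library of 0.879 of the whole range. Trem2 had 3.78 CPM in wild type replicate 3, a gap of 0.862 of the range, and Csf1r had 88.2 CPM in wild type replicate 2, a gap just past the critical value of 0.829.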

How the results depend on the processing

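The number of genes that fell was 14 of 30 in the reported fit, between 3 and 14 with 1 library left out, and between 10 and 17 under the other 8 alternatives; 0 rose under any of the 15. Their median log2 fold change stayed negative, from -0.67 to -0.54 with 1 library left out. Relative to C1q, 1 of 27 genes was lower in the reported fit and 1 or 2 with a library left out, but 0 with at least 5 CPM in 3 libraries, a filter that removes Marco; 9 were higher in the reported fit and 6 to 10 with a library left out. Scalings do not apply to that fit. The replicate block used the numbers in the titles, of which 3 and 4 occur in both groups. Same-numbered libraries deviated together (r = 0.319 and 0.258 across genes). The remaining pairs of a wild-type and a knockout library ran from -0.329 to 0.153. Deviations were taken from the mean of each group, so positive and negative values offset each other in part. Also, 2 pairs without a label do not show pairing. Numbers 1, 2 and 5 occur in 1 group only, so the difference under this block rests on the libraries numbered 3 and 4. Little spread is left to test it against. With the replicate block 17 genes fell (Spic, Cd5l and Dnase2a besides the 14), Itgax did not pass (edgeR adjusted p = 0.0824), and the median was -0.484. Over all genes 852 rose and 1204 fell, against 258 and 556 in the reported fit. Those counts were 617 and 1057 with DESeq2, 651 and 393 with total-count scaling, and 24 to 418 and 116 to 753 with 1 library left out. Signs turned for genes near 0: with total-count scaling Cd68 (0.12), Mrc1 (0.12), Vcam1 (0.081), Fcgr3 (0.032) and Mertk (0.030); with the replicate block Cd68 (0.12), Mrc1 (0.14) and Mertk (0.043); and with 1 library left out Cd68 (-0.052 to 0.088), Mrc1 (-0.22 to 0.12), Vcam1 (-0.22 to 0.078), and the monocyte markers F13a1 (-0.029 to 0.18) and Fn1 (-0.0044 to 0.29). Relative to C1q, the second lower gene without knockout replicate 3 was Ccr2. The cause was not tested. Counts were thinnest for Marco, Spic and Trem2.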
